A study of Mus musculus with 6 samples.

Results

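The genes described here are 10 markers of megakaryocyte and platelet priming in hematopoietic stem cells: Vwf, Clu, Itgb3, Itga2b, Gp1bb, Selp, F2r, Pf4, Slc14a1 and Cd9. Their members on the array were taken as every probe set whose single gene symbol in the array annotation is 1 of these names, which gave 19 of 45037 probe sets and covered all 10 genes. Of these, 14 probe sets of 9 genes exceeded a log2 value of 4 on 3 or more of the 6 arrays and were tested, and 5 were not. The marrow donors were male mice of the strain C57Bl/6 (CD45.1), 10 weeks of age. Lineage-, Sca-1+, c-Kit+ stem cells were sorted from the lower (Lower-SP) or the upper (Upper-SP) part of the side population, which is defined by efflux of a DNA-binding dye, and 3 arrays were run for each fraction. Mice were pooled, and 3 pools were sorted on different days, so a replicate is a pool and not a mouse, and p values measure the spread between these arrays. Whether arrays of the same number share a pool and day is not stated in the labels. No treatment or genetic change is named in the labels, and all groups share the strain, age, sex and sort apart from the side population gate.

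Megakaryocytes are the marrow cells that shed platelets, and some hematopoietic stem cells already carry transcripts of the platelet program and give rise preferentially to platelets. The proteins of that program bind exposed vessel wall and each other: von Willebrand factor bridges collagen to the glycoprotein Ib-IX-V complex, thrombin activates platelets through cleavable receptors, and the integrin of the chains Itga2b and Itgb3 then binds fibrinogen. Granules release further factors such as the chemokine Pf4 and carry the selectin Selp to the surface. In megakaryocytes the promoters of these genes are bound by GATA and ETS family transcription factors.

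Promoters are shown for 4 members, 2 that differed between the fractions (Gp1bb and F2r) and 2 that did not pass (Itga2b and Pf4), to let the sequences be set beside the values below. Each is the 250 bases before the RefSeq gene start in GRCm38.p6, read 5′ to 3′ on the strand of the gene, with matches to GGAAG, the letters of an ETS family site, in capitals on either strand (CTTCC on the other strand).
Gp1bb, chr16:18622404-18622653, minus strand: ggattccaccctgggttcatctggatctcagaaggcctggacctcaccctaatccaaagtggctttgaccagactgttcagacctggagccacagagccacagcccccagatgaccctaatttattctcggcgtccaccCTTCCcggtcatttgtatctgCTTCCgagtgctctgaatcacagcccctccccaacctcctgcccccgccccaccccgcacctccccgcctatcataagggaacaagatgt
F2r, chr13:95618467-95618716, minus strand: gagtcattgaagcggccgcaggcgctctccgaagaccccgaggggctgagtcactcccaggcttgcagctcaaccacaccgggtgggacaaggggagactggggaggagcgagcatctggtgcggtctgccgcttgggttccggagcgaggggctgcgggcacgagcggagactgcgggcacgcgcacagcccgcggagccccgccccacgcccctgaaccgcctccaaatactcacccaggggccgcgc
Itga2b, chr11:102469884-102470133, minus strand: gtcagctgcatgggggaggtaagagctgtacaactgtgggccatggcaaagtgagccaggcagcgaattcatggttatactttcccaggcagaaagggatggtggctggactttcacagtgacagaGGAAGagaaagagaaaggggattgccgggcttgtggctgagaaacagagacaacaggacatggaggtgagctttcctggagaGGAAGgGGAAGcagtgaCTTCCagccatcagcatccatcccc
Pf4, chr5:90772185-90772434, plus strand: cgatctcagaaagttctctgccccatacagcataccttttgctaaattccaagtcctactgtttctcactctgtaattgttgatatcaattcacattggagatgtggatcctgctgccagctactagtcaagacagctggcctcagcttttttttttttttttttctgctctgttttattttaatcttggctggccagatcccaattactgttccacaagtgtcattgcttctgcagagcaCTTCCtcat

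A promoter was matched for 6 of the 10 genes, also for Selp and Cd9. GGAAG was found in 5 of the 6, all but F2r, against 64.1% of the 32851 promoter windows of the same length. GATAA, 1 form of the letters of a GATA family site, was found in 0 of the 6, against 22.6% of all windows. Both GGAAG and GATAA were held by 13.2% of all windows. Other forms were not counted, and the Gp1bb window holds GATAG on the other strand. The 0 thus does not show that the windows lack a GATA site. Itga2b had 4 matches to GGAAG, at 124, 42, 36 and 25 bases before the start, Gp1bb had 2, at 111 and 90, and Pf4 had 1, at 9. These counts describe the letters of the windows and not binding.

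As background for all values below, 5520 of the 19613 tested probe sets (28.1%) passed an adjusted p of 0.05 between the fractions, 10.7% of the tested being higher and 17.5% lower in Lower-SP, and the median difference over all of them was -0.14 on the log2 scale. A positive difference is higher in Lower-SP, on the log2 scale, and adjusted p values are from limma over all tested probe sets. With cyclic loess scaling the median moved to -0.01, and 13.7% were higher and 11.8% lower. Of 15 neutrophil genes on the array, 12 exceeded log2 4 on some array (Elane, Ctsg and Fcnb did not). Of the 9 tested, 4 were higher (S100a8, S100a9, Lcn2 and Chil3) and 1 lower (Prtn3), against 7.05% and 20.7% of all 9460 genes. Lcn2 and Chil3 reached the level for testing through Lower-SP alone. The summed linear level of the list was 21865, 15782 and 5224 on Lower-SP replicates 1 to 3 against 6276 to 8507 in Upper-SP. Lower-SP replicates 1 and 2 thus stood apart, and the fits of the members and of the listed genes, but not the marker levels, likeness or SDs, were also computed without them. That leaves 1 Lower-SP array, which is then assumed to vary like the 3 Upper-SP arrays. On it S100a8 (9.16 against 6.95 to 7.87), S100a9, Lcn2 and Chil3 still read above each Upper-SP array. Ltf, Camp and Ngp lay within the Upper-SP range, and Prtn3 and Lyz2 below it. Prtn3 made up 12.8% to 64.9% of the summed neutrophil level. Of 14 B cell and plasma cell genes, 5 exceeded log2 4 (Cd79a, Pax5 and Ebf1 did not). Their summed level, at most 1022 in Lower-SP and 2821 to 6599 in Upper-SP, did not overlap between the fractions. Igha, lower in Lower-SP, made up as much as 94.2% of that sum. The mean log2 values of the list overlapped, 3.2 to 4.04 in Lower-SP and 3.95 to 4.07 in Upper-SP. Among the other tested genes, Jchain lay below and Ms4a1 above without overlap, Cd79b overlapped, and none passed. The part of these transcripts in the differences below was not tested. Fewer cells of a kind and less RNA per cell cannot be told apart in such bulk samples. The labelled cell type carried its markers: all 19 stem cell genes listed and measured exceeded log2 4, among them Procr, Hlf and Meis1. Of the 19, 2 were higher (Runx1 and Ctnnal1) and 7 lower in Lower-SP, against 7.05% and 20.7% of all genes. The lower ones were Kit, Gfi1, Tal1, Hoxa9, Robo4, Mycn and Abcg2.

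Lower-SP stem cells had more Clu, Gp1bb, Itgb3 and F2r transcript than Upper-SP stem cells and less Slc14a1, while Vwf, Itga2b, Pf4 and Cd9 did not pass and Selp lay near background. The Slc14a1 call was lost whichever array was left out, and those of Itgb3 and F2r without some arrays. The raised genes differed by 0.82 to 2.18 on the log2 scale. Of the 14 tested probe sets 6 passed as higher (42.9%, against 10.7% of all tested probe sets) and 1 as lower (7.14%, against 17.5%), and the median difference was 1.04. These shares describe the probe sets that reached the level for testing, and that of Gp1bb reached it through Lower-SP alone. Several of the 6 are Clu probe sets and share their gene. Read through the brightest tested probe set of each gene, 4 of 9 genes were higher and 1 lower (7.05% and 20.7% of all genes). The median difference of these 9 was 0.82, against -0.24 over all genes. The 3 Lower-SP values lay above the 3 Upper-SP values in 9 of the 14 (18.2% of all tested probe sets) and below them in 1 (27.9% of all). When both Lower-SP arrays rich in neutrophil transcripts were dropped (replicates 1 and 2, a choice made after the values were seen), 4 were higher (6.07% of all) and 0 lower (7.77% of all), with the spread from the Upper-SP arrays alone. These were Vwf, Gp1bb and the Clu probe sets 1437689_x_at and 1454849_x_at. With no filter 3 of the 19 were higher and 0 lower, against 2.78% and 3.73% of all 45037, and 1 of the 3 was a Selp probe set under log2 4 on every array.

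**Figure D1:**
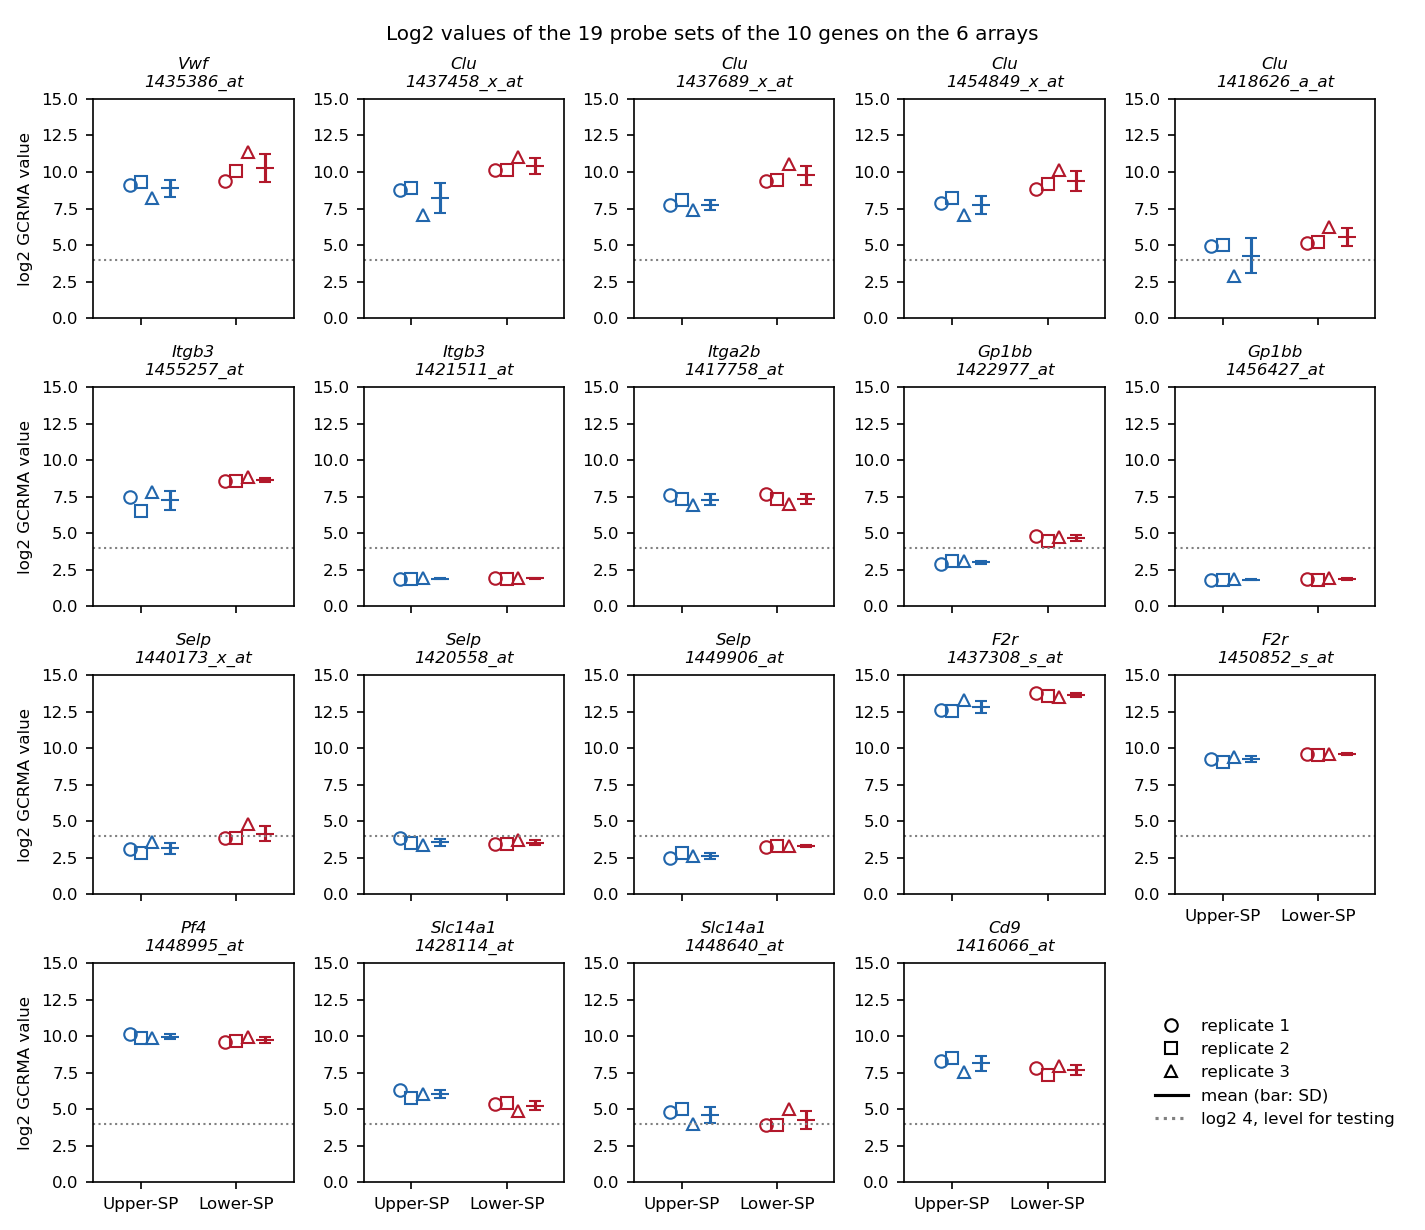
Log2 GCRMA values (vertical axis) of the 19 probe sets in Upper-SP and Lower-SP. Symbols are the replicates, bars the mean and SD of 3 arrays, and the dotted line log2 4, the level for testing. Clu, Itgb3, Gp1bb and F2r sit higher in Lower-SP, Slc14a1 (1428114_at) lower, and the 3 Selp probe sets lie around or under the line.

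**Figure D2:**
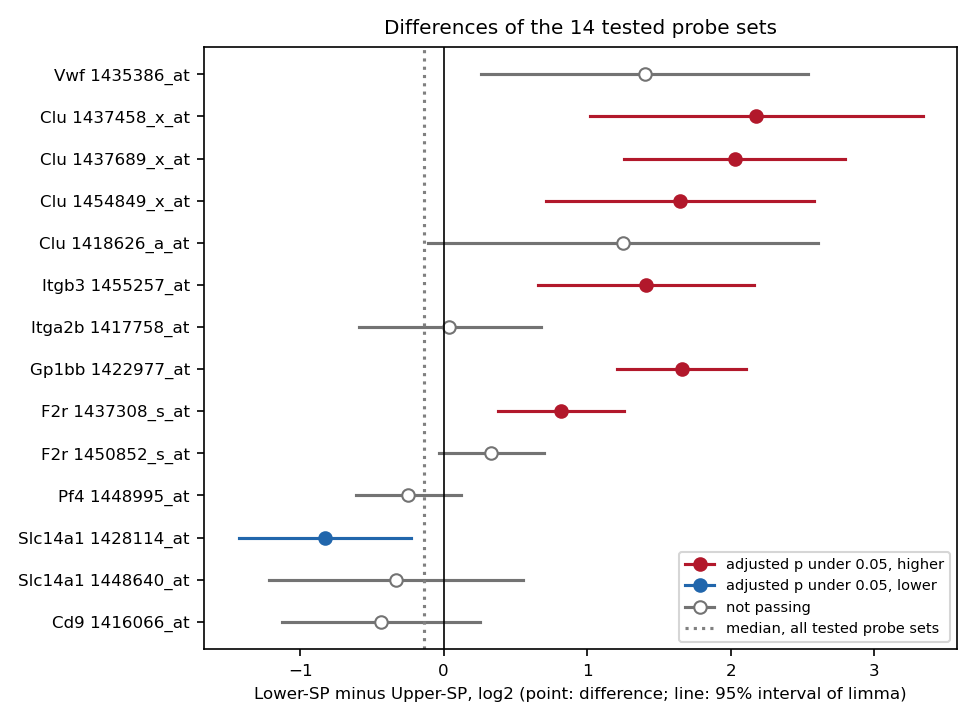
Difference between Lower-SP and Upper-SP (horizontal axis, log2) of the 14 tested probe sets, with the 95% interval of the limma fit. Filled points passed the adjusted p of 0.05: 6 higher and 1 lower, with the widest intervals at Vwf and Clu.

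Vwf encodes von Willebrand factor, the large adhesive protein that marks platelet-biased stem cells. Its 1 probe set read 9.39, 10.1 and 11.34 in Lower-SP and 9.13, 9.30 and 8.21 in Upper-SP. Lower-SP replicate 3 was highest and Upper-SP replicate 3 lowest, and the groups were apart by only 0.09. The difference of 1.40 (SE 0.49, 2.63-fold, 95% interval 0.26 to 2.54) did not pass (adjusted p = 0.069, range 0.026 to 0.22 over the alternatives). It passed without Lower-SP replicate 1 (1.84, adjusted p = 0.037), with cyclic loess (1.61, 0.044) and with quantile normalization (1.54, 0.0499). It was 0.86 without Lower-SP replicate 3 (adjusted p = 0.11), the Lower-SP array with the lowest summed neutrophil level. With that array alone for its group the difference was 2.46, with a spread from Upper-SP only.

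Clu encodes clusterin, a secreted chaperone that is also stored in platelet granules. Its brightest probe set, 1437458_x_at, read 10.11, 10.12 and 11.03 in Lower-SP and 8.80, 8.88 and 7.05 in Upper-SP. As for Vwf, the number 3 arrays were the extremes, but here the groups were apart by 1.23. The difference was 2.18 (SE 0.50, 4.52-fold, adjusted p = 0.018). It kept its call whichever array was left out and lost it without Lower-SP replicates 1 and 2 (2.79, adjusted p = 0.069) with no filter (0.072) and with unmoderated statistics (0.11).

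Another Clu probe set, 1437689_x_at, read 9.37, 9.43 and 10.52 against 7.76, 8.06 and 7.42, a difference of 2.03 (SE 0.33, 4.09-fold, adjusted p = 0.0061) that passed in 18 of 19 alternatives, all but the unmoderated statistics (0.060). The third, 1454849_x_at, differed by 1.65 (SE 0.40, 3.14-fold, adjusted p = 0.021). Its call was lost when Lower-SP replicate 2 (1.74, 0.056), Upper-SP replicate 1 (1.73, 0.075) or Upper-SP replicate 3 (1.31, 0.051) was dropped. It was also lost with a replicate block (0.058), with no filter (0.0823) and with unmoderated statistics (0.118). The 3 passing probe sets have names ending in _x_at, which marks probes that may also bind other transcripts. The fourth, 1418626_a_at, annotated to the RefSeq mRNA of Clu, was dim: 5.15, 5.18 and 6.25 against 4.92, 5.0 and 2.91. Its difference of 1.25 (SE 0.59, 95% interval -0.11 to 2.61, adjusted p = 0.15) had the same direction and the same extreme arrays, and did not pass in any of 18 alternatives.

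Among the platelet receptors, Gp1bb read higher in Lower-SP, at a low level. Gp1bb encodes the beta chain of glycoprotein Ib, part of the receptor for von Willebrand factor. Probe set 1422977_at read 4.83, 4.44 and 4.73 in Lower-SP and 2.88, 3.06 and 3.07 in Upper-SP. All Upper-SP arrays lay under log2 4, so Lower-SP was at least 1.59-fold higher with the low arrays set to 4. The measured difference was 1.66 (SE 0.19, adjusted p = 0.0026 in the limma fit). It was 0.67 with values under log2 4 set to 4 (adjusted p = 0.022). The call held in each of the 17 alternatives that tested it (adjusted p 9.47e-05 to 0.024). The probe set reached the level for testing through Lower-SP alone, so these p values carry that selection. The other Gp1bb probe set, 1456427_at, read 1.79 to 1.94 on all arrays. A probe set annotated to both Septin5 and Gp1bb, outside the rule, read 4.71, 4.17 and 4.10 against 4.24, 4.0 and 4.10 and differed by 0.21 (adjusted p = 0.52).

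Of the other chains of the complex, Gp9 and Gp5 were read here. Gp9, the small chain of the same complex, read 5.43, 5.66 and 6.77 in Lower-SP and 6.74, 6.46 and 6.20 in Upper-SP (difference -0.51, SE 0.37, adjusted p = 0.33), with overlapping groups. Gp5, a further subunit, stayed at or under 1.69 on every array.

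The fibrinogen receptor of platelets pairs Itga2b, the alpha IIb (CD41) chain, with Itgb3, the beta 3 chain. Itgb3 probe set 1455257_at read 8.59, 8.56 and 8.82 in Lower-SP and 7.44, 6.52 and 7.80 in Upper-SP. The Lower-SP arrays were tight (SD 0.14) and all above the Upper-SP arrays (SD 0.66), of which replicate 2 was lowest. Itgb3 rose by 1.41 (SE 0.32, 2.65-fold, adjusted p = 0.018). The call was lost when Lower-SP replicate 2 (adjusted p = 0.0512) or Upper-SP replicate 1 (0.0629) was dropped. It was also lost with no filter (0.0645) and with unmoderated statistics (0.0942). With Lower-SP replicate 3 alone against Upper-SP the difference was 1.57. The probe set annotated to the RefSeq mRNA of Itgb3, 1421511_at, read 1.86 to 1.92 on the 6 arrays and gave no signal to compare.

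Itga2b read 7.68, 7.36 and 6.98 in Lower-SP against 7.61, 7.36 and 6.92 in Upper-SP, nearly the same values in each fraction. The difference was 0.04 (SE 0.28, 95% interval -0.59 to 0.68, adjusted p = 0.92), and its sign turned with array weights and without some arrays. The other partner of Itgb3, the alpha V chain Itgav, read 9.85, 9.74 and 9.54 against 9.29, 9.38 and 9.10. Its groups did not overlap, and the difference of 0.45 (SE 0.16, adjusted p = 0.066) did not pass.

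F2r encodes PAR1, a receptor that thrombin activates by cutting it. Probe set 1437308_s_at read 13.78, 13.6 and 13.51 in Lower-SP and 12.6, 12.56 and 13.27 in Upper-SP. Upper-SP replicate 3 came within 0.24 of the lowest Lower-SP array. F2r rose by 0.82 (SE 0.19, 1.77-fold, adjusted p = 0.018). The call was lost when Lower-SP replicate 1 (0.75, adjusted p = 0.058) or 2 (0.0554) or Upper-SP replicate 1 (0.72, 0.082) or 2 (0.70, 0.064) was dropped. It was also lost with no filter (0.0663) and with unmoderated statistics (0.105). With Lower-SP replicate 3 alone against Upper-SP the difference was 0.70. The dimmer probe set, 1450852_s_at, read 9.63, 9.51 and 9.60 against 9.29, 9.04 and 9.41 and differed by 0.33 (SE 0.16, adjusted p = 0.15), again with no overlap and without passing. It passed with cyclic loess (0.042). The thrombin receptors F2rl2 and F2rl3 stayed at or under 2.69 and 2.19.

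Selp, the gene of P-selectin, an adhesion molecule of platelet and endothelial granules, was near background at its 3 probe sets, and none was tested. Probe set 1440173_x_at read 3.85, 3.84 and 4.79 in Lower-SP and 3.10, 2.81 and 3.56 in Upper-SP, with Lower-SP replicate 3 alone above log2 4. Probe set 1449906_at read 3.21, 3.33 and 3.34 against 2.46, 2.86 and 2.60. The Lower-SP arrays were above the Upper-SP arrays at these 2. The third, 1420558_at, read 3.36 to 3.83 with overlapping groups. No fold is given for values at this level.

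Pf4, platelet factor 4, is a chemokine of the alpha granule. It read 9.58, 9.68 and 9.94 in Lower-SP and 10.15, 9.90 and 9.88 in Upper-SP. The groups overlapped through Lower-SP replicate 3, and the difference of -0.25 (SE 0.16, 95% interval -0.61 to 0.12) did not pass (adjusted p = 0.27). Ppbp, the neighbouring platelet chemokine, stayed at or under 3.95 on every array.

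Cd9, a tetraspanin of platelets and stem cells that organizes integrins in the membrane, read 7.81, 7.34 and 7.97 in Lower-SP and 8.34, 8.52 and 7.58 in Upper-SP. Upper-SP replicate 3 fell among the Lower-SP arrays. The difference was -0.44 (SE 0.30, 95% interval -1.13 to 0.25, adjusted p = 0.30).

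Slc14a1, a urea transporter of erythroid and stem cells, was the member lower in Lower-SP. Probe set 1428114_at read 5.37, 5.45 and 4.90 against 6.34, 5.80 and 6.07, with a gap of 0.35 between the groups. It fell by 0.83 (SE 0.26, 1.77-fold, adjusted p = 0.048), close to the threshold. The call was lost without any 1 of the 6 arrays (differences -0.66 to -0.96, adjusted p 0.075 to 0.18), with cyclic loess (-0.75, 0.069) and with centring (-0.74, 0.070), with a replicate block (0.0816), with the robust trend (0.0533), unmoderated (0.0957) and with no filter (0.0983). The RefSeq probe set 1448640_at read 3.93, 3.90 and 4.99 against 4.79, 5.02 and 4.01. Its groups overlapped, with replicate 3 highest in Lower-SP and lowest in Upper-SP (difference -0.33, SE 0.38, adjusted p = 0.54).

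The arrays of replicate 3 were often the extremes among the members. In 9 of the 14 tested probe sets Lower-SP replicate 3 was the highest Lower-SP array (43.2% of all tested probe sets), and in 9 Upper-SP replicate 3 was the lowest Upper-SP array (45.3% of all). The 4 Clu probe sets are among the 9 each time and share their gene. The median SD within a fraction was 0.34 in Lower-SP and 0.45 in Upper-SP over the 14, against 0.28 and 0.23 over all tested probe sets.

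**Figure D3:**
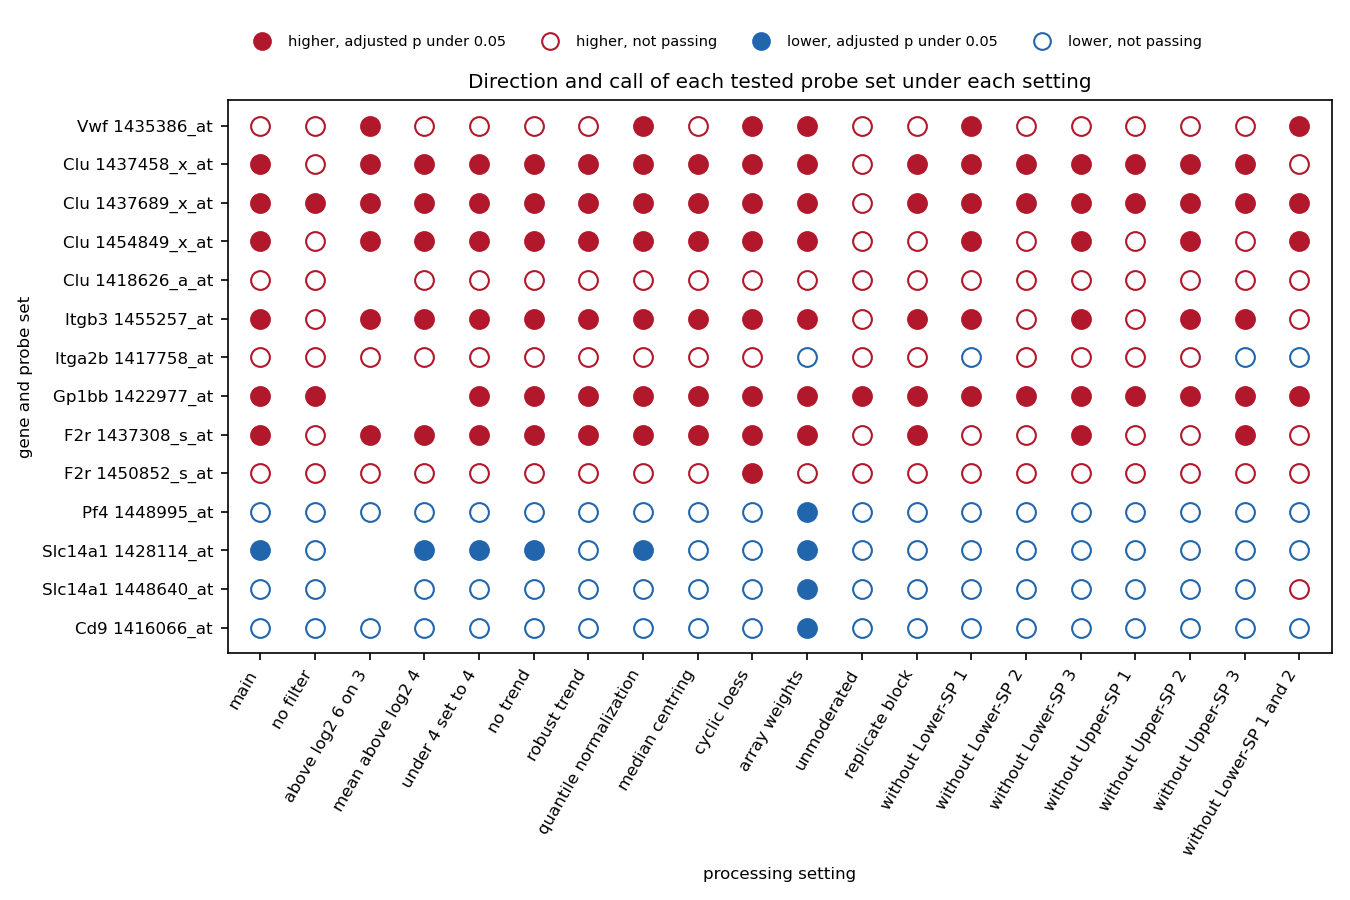
Direction (red higher, blue lower in Lower-SP) and call (filled: adjusted p under 0.05) of the 14 tested probe sets in rows under the main fit and 19 other settings in columns. A blank is a probe set that the filter removed. Gp1bb stays filled in all 17 settings that tested it, having reached the level for testing through Lower-SP alone. Slc14a1 1428114_at is open in 13 of 18.

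Genes with the most similar profile were sought among the 9459 other genes, by the root mean square difference of the 6 mean-centred log2 values. Nearest to Vwf was Depp1, at 0.12, which read 8.30, 8.86 and 10.02 in Lower-SP and 7.75, 7.85 and 6.96 in Upper-SP. Tmem51 (0.22) and Bdp1 (0.28) came next. Clu stood at rank 119 (0.56), Gp1bb at 504 and Itgb3 at 1350 by nearness to Vwf. Nearest to Clu were Adarb1 (0.31), Bmp2 (0.38) and Bdp1 (0.39), with Vwf at rank 27. Nearest to Itgb3 were Ddhd2 (0.18), Ppp2r5e (0.19) and Tmem19 (0.19), with F2r at rank 218 and Gp1bb at rank 241, while its partner chain Itga2b stood at rank 3956. The Upper-SP values of Gp1bb lie under log2 4, so its ranks rest partly on background. Nearest to Cd9 were Ppp1r16b (0.05), Rhbdf1 (0.06) and Aven (0.08). Vwf and Clu thus shared their extreme arrays, whereas Itgb3 was lowest on Upper-SP replicate 2.

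**Figure D4:**
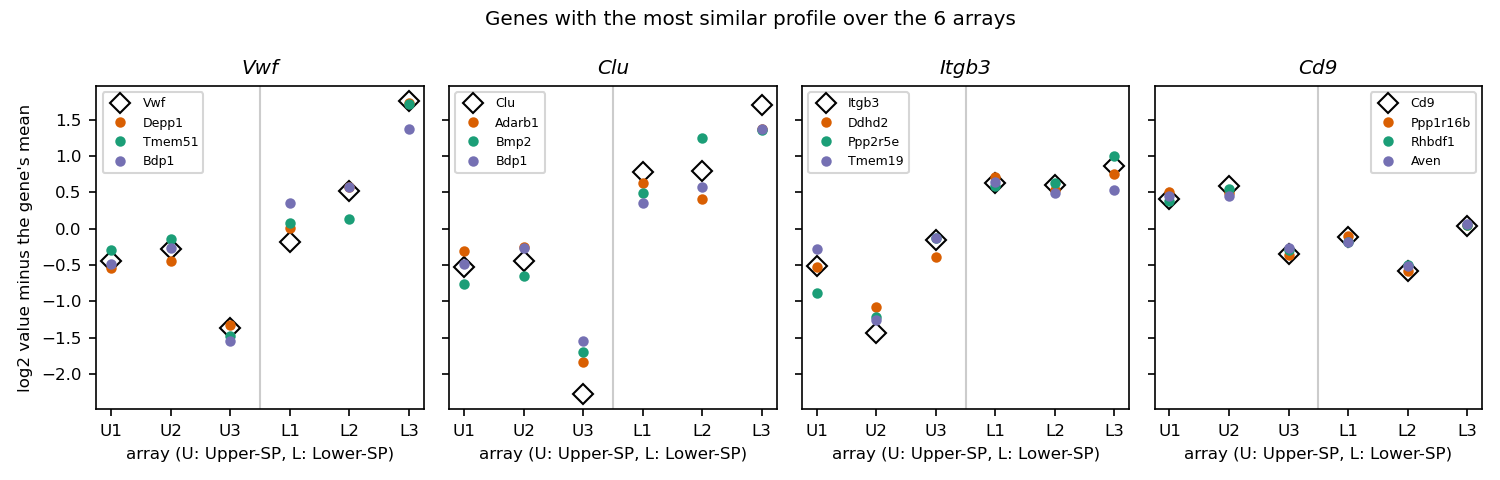
Log2 values minus each gene's mean (vertical axis) on the 3 Upper-SP (U) and 3 Lower-SP (L) arrays for Vwf, Clu, Itgb3 and Cd9 (diamonds) and the 3 nearest genes of each (dots). Vwf, Clu and their nearest genes are lowest on U3, and each of them is higher on L3 than on L1.

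Other genes of the platelet program were read through 8 lists, each gene by its brightest tested probe set. Of 221 listed genes 159 were tested, and 12 of them were higher and 35 lower in Lower-SP. These are 7.55% and 22.0%, near the 7.05% and 20.7% of all 9460 genes. Of the 47 that passed, 14 passed whichever array was dropped: Lyst, Hps1, Ap3b1, Myb, Fermt3, Apbb1ip, Plek, Plcb2, Plcg2, Prkcd, Neo1, Itgb5, Cd82 and Cd37. Dropping replicate 1 of Upper-SP lost 33, its replicate 2 lost 23, and replicates 1 and 2 of Lower-SP lost 14 and 18. With both of these Lower-SP arrays dropped, 11 passed, on a spread from Upper-SP alone. Genes named beyond the largest 4 of a list were chosen after their values were seen.

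Of 11 tested platelet adhesion and activation receptors, 0 were higher and 2 lower in the limma fit (0 higher also at an unadjusted p of 0.05), and the list median was -0.61 (all genes -0.24). Without Lower-SP replicates 1 and 2 the median was -0.02. P2rx1, an ATP-gated channel, read 6.39, 6.26 and 6.36 against 7.48, 7.36 and 7.12 and fell by 0.98 (adjusted p = 0.013), with -0.49 at its other probe set. Fcer1g, the signalling chain of the collagen receptor, fell by 0.84 (adjusted p = 0.043), a call lost with each other scaling.

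Of 17 granule genes, 1 was higher and 4 lower (median -0.19). Lyst, a regulator of lysosome-related organelles, read 4.66, 4.44 and 4.68 against 6.69, 5.96 and 6.16 and fell by 1.68 (SE 0.26, 3.2-fold, adjusted p = 0.0051). The lowered Hps1 (-1.21), Nbeal2 (-0.97) and Rab32 (-0.96) also serve granule formation, and Nbeal2 was lost with cyclic loess. Ap3b1, a subunit of the AP-3 sorting adaptor, rose by 1.44 (SE 0.16, adjusted p = 0.0024), with -0.10 at another probe set.

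Of 22 transcription factors, 1 was higher and 6 lower (median -0.33). Ldb1 (-1.24), Cbfb (-0.88), Tal1 (-0.85), Myb (-0.75), Lyl1 (-0.57) and Lmo2 (-0.32) fell, the last 2 only with the deposited scaling. Other Myb probe sets differed by -0.56, which passed, and by -0.06, which did not. Tal1, Lyl1, Lmo2 and Ldb1 work in a shared complex on DNA. Runx1 rose by 0.74 (adjusted p = 0.045), a call lost when replicate 1 or 2 of either fraction was dropped. The megakaryocyte factors Fli1 (-0.02) and Gata2 (-0.07) did not pass, and Gata1 stayed at or under 2.31.

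Of 13 thrombopoietin signalling genes, 1 was higher and 2 lower (median -0.06, turning to 0.15 with cyclic loess). The transcription factor Stat5b (-0.91) and the phosphatase Ptpn11 (-0.73) fell, and the ubiquitin ligase Cbl (0.70) rose, with -0.09 at its other probe set. A second, dim Ptpn11 probe set differed by 1.20 without passing.

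Of 29 cytoskeletal and integrin activation genes, 2 were higher and 8 lower (median -0.36). The actin crosslinker Flna (-1.26), the myosin kinase Mylk (-1.19) and the integrin-linked kinase Ilk (-1.02) fell most. The integrin activators Tln1 (-0.65) and Fermt3 (-0.39) were also lower, while the Rap1 adaptor Apbb1ip (1.49, at least 1.85-fold) and Lims1 (0.56) rose. Apbb1ip reached the level for testing through Lower-SP alone.

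Of 23 signalling enzymes, 3 were higher and 4 lower (median 0.04). Btk (-1.74, at least 1.94-fold), the thromboxane synthase Tbxas1 (-1.31), Plcg2 (-0.91) and Arhgef1 (-0.60, lost with each other scaling) fell. Btk reached the level for testing through Upper-SP alone. Plcb2 (0.89), Prkcd (0.72) and Syk (0.70) rose.

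Of 27 other genes reported in platelet-biased or old stem cells, 3 were higher and 0 lower in the limma fit (2 lower at an unadjusted p of 0.05), and the median was -0.05 (0.08 under cyclic loess). Tm4sf1, a tetraspanin-like membrane protein, read 6.11, 6.45 and 8.35 against 5.06, 5.18 and 4.17 and rose by 2.17 (SE 0.58, 4.50-fold, adjusted p = 0.029), with the same extreme arrays as Vwf and Clu. Its call was lost without Lower-SP replicate 2 or any of the Upper-SP arrays. Cavin2, a caveolar coat protein of platelets, read 5.98, 6.96 and 6.36 against 4.84, 3.84 and 5.10 and rose by 1.84 (SE 0.40, adjusted p = 0.014), a call lost without Upper-SP replicate 1. Its other probe sets lay under log2 4 on all Upper-SP arrays and were tested through Lower-SP alone, so their p values carry that selection. They were at least 3.95-fold and 1.3-fold higher in Lower-SP (adjusted p = 0.0034 and 0.0045). Neo1, the receptor neogenin, rose by 1.64 (SE 0.21, 3.11-fold, adjusted p = 0.0031) and by 2.59 at a second probe set. Slamf1 (-0.05) and Aldh1a1 (-0.23) did not pass.

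Among partners and close relatives of the members more genes fell than rose, as among all genes (20.7% lower and 7.05% higher). Of 19 tested, 1 was higher and 9 lower, with a median of -0.79 (-0.62 with cyclic loess, where all genes lay at -0.09). With Lower-SP replicate 3 alone against Upper-SP, 0 were higher and 3 lower in the limma fit. The beta chains Itgb5 and Itgb7 fell by 1.64 and 1.19, where Itgb3 rose. Itgb5 fell at all 4 of its tested probe sets, by 1.53 to 3.02. The tetraspanins Cd53 (-1.39), Cd37 (-1.16), Tspan32 (-1.04), Cd82 (-0.99) and Cd81 (-0.67) fell, beside -0.44 for Cd9, which did not pass. Selplg, the ligand of P-selectin, fell by 1.41 and Itga4 by 0.79, the latter lost with cyclic loess. The lipoprotein receptor Vldlr rose by 1.05 (adjusted p = 0.021), lost without any array other than Lower-SP replicate 3.

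**Figure D5:**
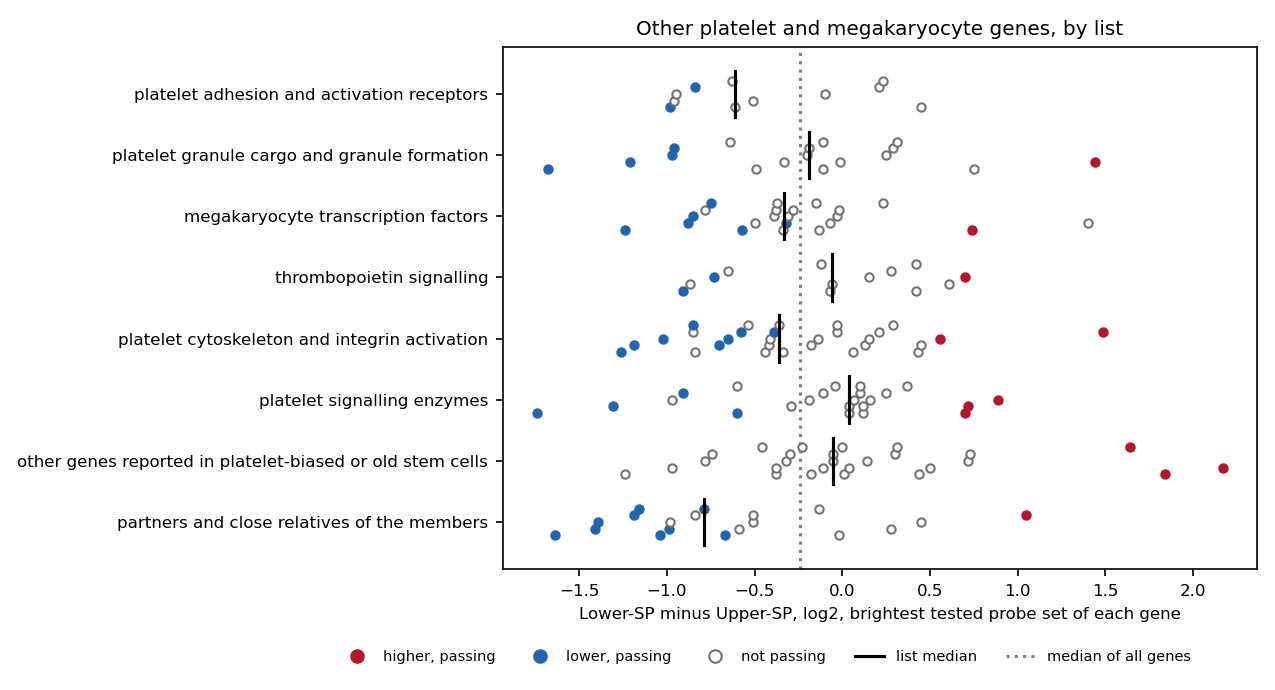
Difference between Lower-SP and Upper-SP (horizontal axis, log2) of each tested gene of the 8 lists. Filled dots passed (12 genes higher, 35 lower), black bars are list medians and the dotted line is the median of all genes, -0.24. The relatives of the members have the lowest median, -0.79.

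Mature megakaryocyte, endothelial and erythroid cells could also carry member transcripts, and their markers were read on the same arrays. Of 13 mature megakaryocyte and platelet genes 5 exceeded log2 4, and Ppbp, Gp5, Gp6, Tubb1, F2rl2, F2rl3, Alox12 and Itga2 did not on any array. Their summed linear level was 1033 to 1174 in Lower-SP and 905 to 1060 in Upper-SP, of which Mmrn1 made up 66.3% to 78.6%. Their mean log2 value ran the other way and did not overlap, 3.75 to 3.82 in Lower-SP and 3.89 to 4.05 in Upper-SP. In the limma fit 0 of the 5 tested passed (1 was lower at an unadjusted p of 0.05). Mmrn1 (0.31) lay above and Clec1b (-0.95) and Treml1 (-0.63) below without overlap.

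Of 22 endothelial genes, whose cells also make Vwf and Selp, 14 exceeded log2 4 on some array, while Cdh5, Pecam1 and Flt1 did not. Their summed level was 1812 to 2759 in Lower-SP and 2060 to 2540 in Upper-SP. Eng rose by 1.03 (adjusted p = 0.020), and Robo4 fell by 1.33 (0.024) and Egfl7 by 0.76 (0.025). Of 13 erythroid genes 9, among them Klf1 and Alas2, stayed under log2 4. Their summed level of 3386 to 4843 in Lower-SP and 4296 to 4884 in Upper-SP was 85.0% to 89.9% Car2. The part of such cells in the differences of the members was not tested.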

How the data were processed

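The values are log2 intensities per probe set of an Affymetrix mouse array, deposited by the authors and made with GCOS 1.0 and GCRMA per the submitters' processing notes, and per the labels' protocols from RNA amplified over repeated rounds of in vitro transcription. GCRMA corrects background by probe sequence and normalizes the arrays to each other. Parameters and a genome build are not given in the sources used here. Dim values are compressed by it, and only 3 arrays a group limit the precision.

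After 64 control probe sets were left out, symbols came from the annotation table of the array (34945 probe sets with 1 symbol, 932 with several, 9160 with none). Probe sets above log2 4 on at least 3 of 6 arrays (19613, of 9460 genes) were fitted in R 4.3.3 with limma 3.58.1 (lmFit, eBayes with trend, two-sided, no block, Benjamini-Hochberg over all of them, threshold 0.05). The fit was tested on simulated data. A group mean under log2 4 gives a fold as a lower bound, with low arrays set to 4. No pair of arrays was identical. Beside the members, the rule names from each list at most 4 passing genes, taken by size of difference, or 2 by p where fewer than 2 passed. Some listed genes are not analysed here. The members and lists were chosen with earlier results of these data known. Alternatives were other filters, a floor, other variance models, 3 scalings, array weights, a replicate block, a 2-fold minimum, each array left out and, added later, Lower-SP replicates 1 and 2 left out. The marker lists that are not described above are T and NK cell genes (1 of 10 above log2 4, and that 1, Nkg7, lower in Lower-SP) and mast cell and basophil genes (2 of 8, with 0 passing in the limma fit and 0 at an unadjusted p of 0.05). Promoter sequences are from RefSeq, GRCm38.p6.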

Additional observations from a re-analysis of the deposited data

How the results depend on the processing

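Of 261 values of the tested members under the alternatives, 211 kept direction and side of the threshold, 35 lost and 10 gained the call, and 5 turned: Itga2b to -0.124 with array weights, -0.322 without Lower-SP replicates 1 and 2 together and from -0.146 to 0.228 with each array left out, and Slc14a1 1448640_at to 0.381 without Lower-SP replicates 1 and 2 together. Member probe sets called higher were 6, but 3 with no filter (1 of them a Selp probe set not tested otherwise), 1 unmoderated, and 3 to 6 with each array left out. Called lower was 1, but 0 with no filter, the log2 6 filter, the robust trend, centring, cyclic loess, unmoderated statistics, the 2-fold minimum, without Lower-SP replicates 1 and 2 and with any array left out, and 4 with array weights, which gave Upper-SP replicate 1 a weight of 8.36.

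Over all probe sets, 2090 higher and 3430 lower became 1252 and 1679 with no filter, 3749 and 6979 with array weights, 851 and 1116 unmoderated, 1191 and 1524 without Lower-SP replicates 1 and 2, and 885 to 2455 and 781 to 3942 with each array left out. With the 2-fold minimum 1577 were lower. Of the listed genes, 12 higher and 35 lower became 5 and 20 with no filter, 21 and 66 with array weights, 4 and 16 unmoderated, 6 and 14 with the 2-fold minimum, and 5 to 14 and 9 to 43 with each array left out. With cyclic loess 19 were higher, and without Lower-SP replicates 1 and 2, 10 were lower. The cause was not tested.

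Same-numbered arrays did not deviate together (r = -0.051, -0.029 and -0.023 across probe sets), so the numbers were not taken to pair them. With a replicate block 5 members were higher and 0 lower (1680 and 2500 of all probe sets, 10 and 27 listed genes). Of 528 values of the named listed genes 423 were kept, 105 lost the call and 0 turned. Signal over background limits Selp and Gp1bb, whose Upper-SP values lie under log2 4.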
